A study of Mus musculus with 16 samples.

Results

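The 10 genes described here, Mrpl39, Jam2, Gabpa, Cyyr1, Adamts1, Adamts5, N6amt1, Ltn1, Usp16 and Dop1b, are protein-coding genes that lie around App, the gene of the amyloid precursor protein, on mouse chromosome 16. They were listed by name as genes within about 10 Mb of App, out of 57010 genes in the count table, of which 107 are protein-coding genes in that window when App is left out. Dop1b and Adamts1 were listed because they had been seen to fall in the knock-in in these same libraries. Their difference between the genotypes is therefore a description and is given with no test, while the other 8 members were not chosen by their values. The others fall close to App, at most 2.28 Mb from its nearer end, and Dop1b is the most distant at 8.54 Mb.

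RNA was sequenced from microglia of the olfactory bulb of mice aged 2 months, in 16 libraries, with 4 from each sex of each genotype (f and m in the titles, read as female and male). Cells were captured with magnetic beads against CD11b, a surface protein of microglia and other myeloid cells. WT libraries came from C57BL/6J mice bought from a supplier. KI libraries came from App NL-G-F mice (Apptm3.1Tcs/Apptm3.1Tcs) kept on the same background, in which the mouse App gene carries a humanised amyloid-beta sequence with several familial Alzheimer's disease mutations under its own promoter. The controls were not described as littermates, so the edit and any other inherited difference between the colonies cannot be told apart. The isolations numbered 8 for each genotype, as many as the libraries, but no source used here says outright that each library was 1 animal. Technical replicates are mentioned for the sequencing, and the table has 1 column per library. Each test therefore measures the spread between libraries.

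A knock-in allele is inherited together with the stretch of chromosome around it, so the genes closest to an edited locus are those that stay linked to it through breeding. The genes around App have unrelated jobs in microglia and other cells, from mitochondrial translation (Mrpl39) and protein quality control on stalled ribosomes (Ltn1) to cutting of the extracellular matrix (Adamts1 and Adamts5) and traffic between endosomes and the Golgi (Dop1b). Dop1b is the mouse counterpart of a gene of the human Down syndrome region, and much of this stretch corresponds to human chromosome 21.

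All 10 members passed the count minimum of 5 counts in at least 8 libraries, among 18227 genes that did. Library totals ran from 9052932 to 18117286 counts, and 3 counts, the limit that a count of 0 allows, correspond to 0.166 to 0.331 CPM, the unit used throughout (counts scaled to a common library total, here with factors from the trimmed mean of M-values, TMM). Xist was at least 547 CPM in all f libraries and at most 0.448 CPM in all m libraries. All 12 microglial markers examined were detected and their summed level was 20423 to 24227 CPM in WT and 20468 to 23769 CPM in KI libraries. App itself, read with a human App sequence added to the reference, measured 419 ± 34.4 CPM in WT and 399 ± 12.7 CPM in KI libraries (SD over 8 libraries of each genotype), with a log2 fold change of -0.07 (FDR 0.4, edgeR's quasi-likelihood test with Benjamini-Hochberg adjustment over all tested genes). Values of App that separate the human from the mouse sequence were not analysed here.

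The sequences just before the start of the canonical transcript are shown for Dop1b, Adamts1 and Usp16, members whose levels differed between the genotypes, since these are the promoters the values below belong to. Each is the 250 bases before the start of the canonical transcript in GRCm39, 5′ to 3′ on the strand of the gene. Dop1b is on the plus strand (chr16:93508528-93508777), Adamts1 on the minus strand (chr16:85600010-85600259) and Usp16 on the plus strand (chr16:87251341-87251590). The annotated Dop1b gene begins at 93508690, before its canonical transcript, so the end of its stretch lies inside the gene. Capitals mark matches, on either strand, to the letters of the GC box (GGGCGG) or the TATA box (TATAAA).
Dop1b: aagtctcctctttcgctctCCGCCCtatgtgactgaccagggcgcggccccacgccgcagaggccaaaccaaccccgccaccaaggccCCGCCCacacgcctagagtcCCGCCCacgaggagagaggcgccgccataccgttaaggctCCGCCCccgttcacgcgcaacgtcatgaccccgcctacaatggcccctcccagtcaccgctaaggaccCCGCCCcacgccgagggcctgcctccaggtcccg
Adamts1: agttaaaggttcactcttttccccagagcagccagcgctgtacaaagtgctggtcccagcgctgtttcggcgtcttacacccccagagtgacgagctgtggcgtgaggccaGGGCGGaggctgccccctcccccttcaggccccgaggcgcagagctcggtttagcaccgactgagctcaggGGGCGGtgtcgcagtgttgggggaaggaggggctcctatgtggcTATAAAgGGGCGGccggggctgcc
Usp16: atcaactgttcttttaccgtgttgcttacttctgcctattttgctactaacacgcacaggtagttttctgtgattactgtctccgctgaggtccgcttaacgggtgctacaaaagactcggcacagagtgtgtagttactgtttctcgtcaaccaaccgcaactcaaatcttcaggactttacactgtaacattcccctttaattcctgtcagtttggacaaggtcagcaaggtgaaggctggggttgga

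The 3 stretches differ in composition. The Dop1b sequence was 69.6% G or C with 25 CpG dinucleotides and 5 GC boxes, and the Adamts1 sequence was 64.8% G or C with 15 CpG dinucleotides, 3 GC boxes and a TATA box that begins 24 bases before the start. The Usp16 sequence was 45.6% G or C with 8 CpG dinucleotides and held none of the letters searched. Over 21770 protein-coding promoters of the same length the median was 53.2% G or C with 8 CpG dinucleotides, 36.3% held a GC box and 11.9% a TATA box. The letters of an AP-1 site (TGAGTCA, in 4.02% of promoters), of a CRE (TGACGTCA, in 1.69%) and of an E-box (CACGTG, in 6.26%) were in the window of none of the 9 members searched. The Gabpa window held 1 match to CCGGAAGT, the letters that GABP and related ETS factors bind, which 2.64% of promoters hold. A match is a string of letters and not a site shown to be used.

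Dop1b, which encodes a large protein that works with Mon2 in traffic between endosomes and the Golgi, was lower in the KI libraries by close to the same amount in both sexes. The gene lies on chromosome 16 of GRCm39 from 93508690 to 93608264. In the WT_f libraries it measured 65.9, 61.6, 63.7 and 68.7 CPM, and in WT_m 57.6, 61.7, 58.3 and 61.8 CPM. In KI_f it measured 29.8, 31.6, 33.6 and 35.8 CPM, and in KI_m 31.2, 30.2, 32.7 and 36.4 CPM. Every KI library was below every WT library, and the lowest WT value stood well above the highest KI value. Among all protein-coding genes tested 0.465% had genotypes that did not overlap. The means were 62.4 ± 3.69 CPM in WT and 32.7 ± 2.45 CPM in KI (SD, n = 8 each). The log2 fold change was -0.93 with a standard error of 0.0502, a difference of -47.6% in level. These values belong to the contrast that put Dop1b on the list.

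The spread of Dop1b within a genotype was small beside that difference. Within the libraries numbered 1 and 2 the log2 fold change was -1.02, and within those numbered 3 and 4 it was -0.86. Leaving out any library kept it between -0.96 and -0.90. These refits use the same libraries and contrast that chose Dop1b, so they describe its values and test nothing. Dop1b had 365 to 1097 counts per library. Dop1b overlaps lncRNA genes on the opposite strand, of which Gm30881 (over 3058 bases) was tested and did not pass (log2 fold change 0.57, SE 0.342, FDR 0.336, edgeR) and 2310043M15Rik was below the count minimum. The strand setting of the counting is not given in the sources used here, so reads of such pairs may have been split between them.

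**Figure D1:**
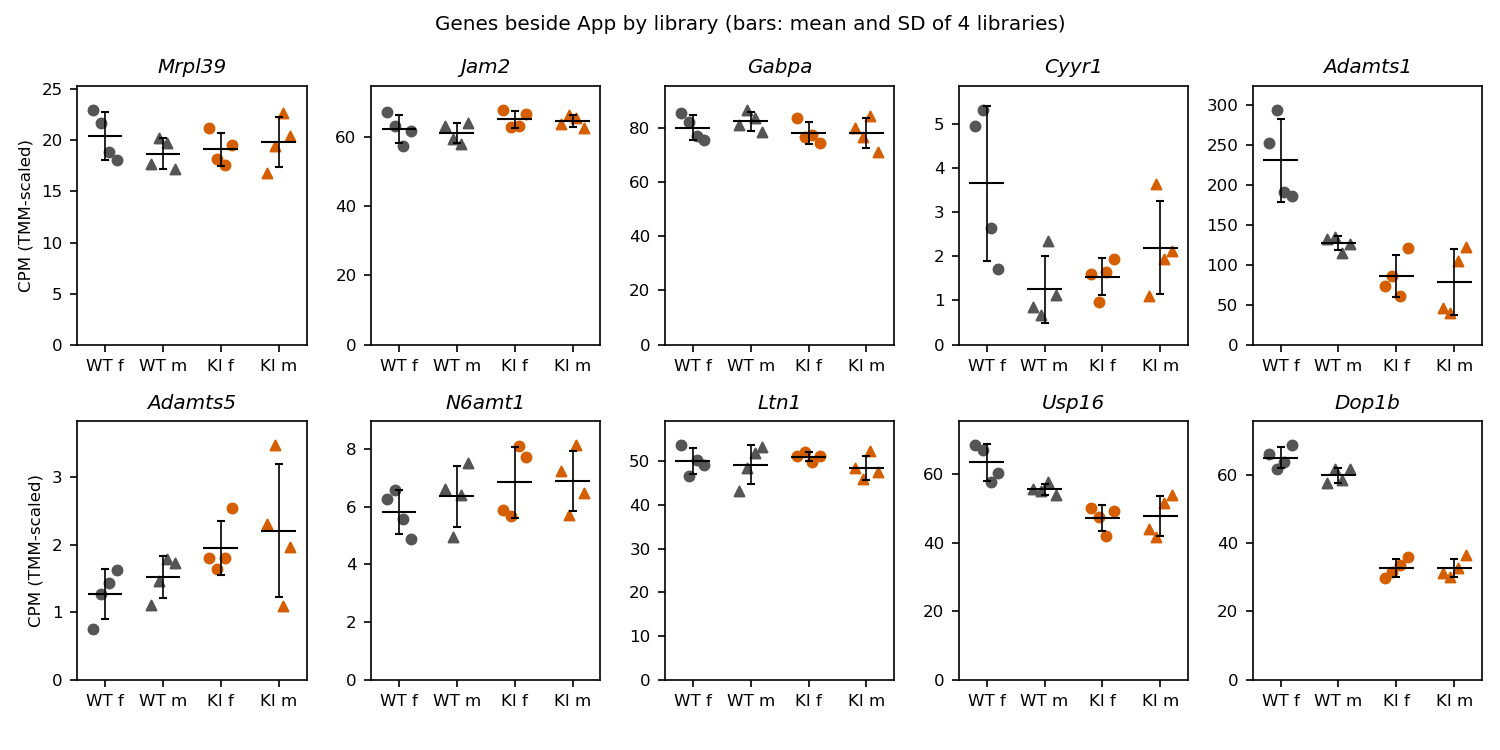
CPM (TMM-scaled, linear axis from 0) of the 10 members in each of the 16 libraries, by genotype (grey WT, orange KI) and sex (circles f, triangles m), with the mean and SD of 4 libraries, in order along the chromosome. The KI libraries of Dop1b sit between 29.8 and 36.4 CPM against 57.6 to 68.7 CPM in WT, those of Adamts1 overlap the WT range, and Mrpl39, Jam2, Gabpa and Ltn1 are level.

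Adamts1, a secreted protease that cleaves proteoglycans such as versican and aggrecan and is induced by inflammatory and growth signals, was also lower in KI libraries but with a wide spread. It lies 0.619 Mb from App, from 85590579 to 85600009 on the minus strand. In WT_f it measured 252, 295, 191 and 186 CPM, and in WT_m 132, 135, 115 and 127 CPM. In KI_f it measured 74.1, 86.4, 61.0 and 122 CPM, and in KI_m 46.1, 39.8, 104 and 123 CPM. The 4 WT_f libraries were the highest of all, and 2 KI libraries lay within the WT_m range, so the genotypes overlapped. The means were 179 ± 65.3 CPM in WT and 82.0 ± 32.3 CPM in KI (SD, n = 8 each), and the log2 fold change was -1.07 with a standard error of 0.216. As for Dop1b, this is the contrast that chose the gene.

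The log2 fold change of Adamts1 was -1.72 within the libraries numbered 1 and 2 and -0.56 within those numbered 3 and 4, whereas that of Dop1b was alike in both. The Adamts1 values ran along with the immediate early genes, a list of 14 rapidly induced genes such as Fos, Jun and Egr1. Of the 14, 13 were called lower in KI and the median log2 fold change was -1.21, and none was at 0. Their summed level was 12566 to 16632 CPM in WT_f, 7088 to 8468 CPM in WT_m, 3609 to 6777 CPM in KI_f and 3107 to 7354 CPM in KI_m. With the immediate early score of each library as a further term the log2 fold change was -0.08 for Adamts1 and -0.77 for Dop1b. The score itself differs between the genotypes, so such a fit leaves little of a shared difference to the genotype. The endothelial marker score as a term left -1.03 for Adamts1 and -0.93 for Dop1b.

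**Figure D2:**
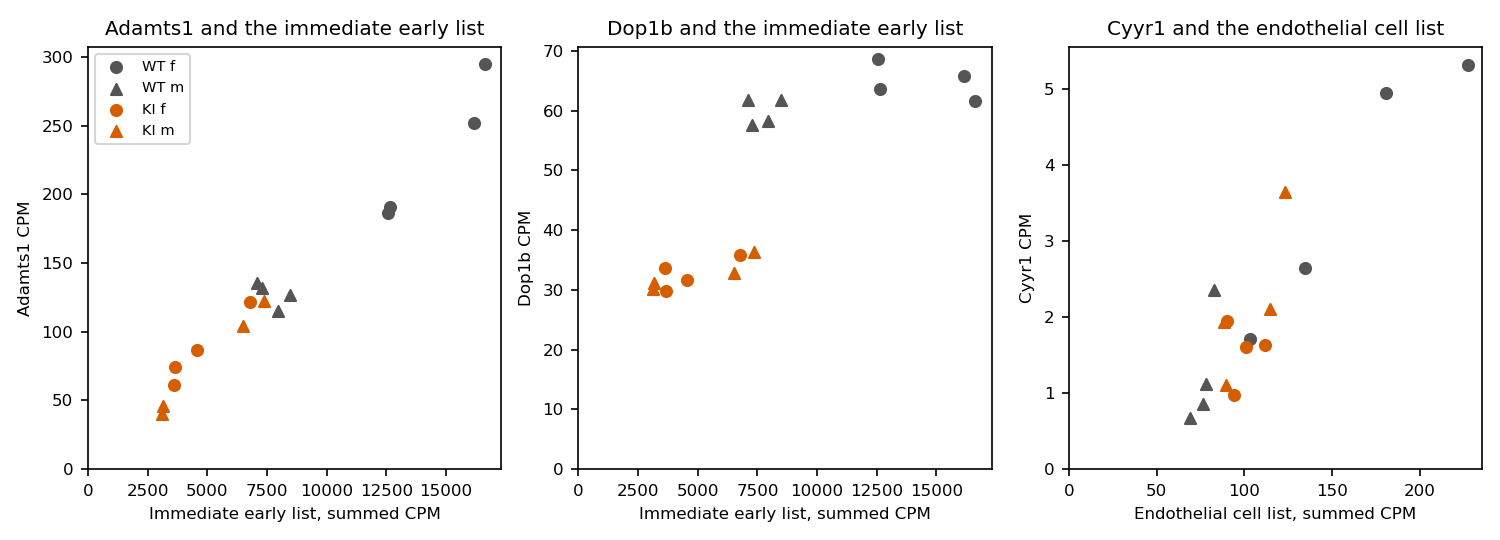
CPM of Adamts1 (left) and Dop1b (middle) against the summed CPM of the 14 immediate early genes, and of Cyyr1 (right) against the summed CPM of 10 endothelial markers, 1 point per library, linear axes from 0. Adamts1 runs along with the immediate early sum in both genotypes, Dop1b forms a WT level near 62.4 CPM and a KI level near 32.7 CPM, and the highest Cyyr1 values (4.94 and 5.32 CPM) are WT_f libraries.

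The genes whose profile over the 16 libraries was most like each of the pair were found by the root mean square distance between standardised log2 CPM values, with no test. For Adamts1 the 5 closest were Btg1 (distance 0.168), Socs3 (0.177), Jun (0.216), Ccdc86 (0.218) and Ccnl1 (0.218), all protein-coding and on other chromosomes. Btg1 is an antiproliferative gene, Socs3 a feedback inhibitor of cytokine signalling, Jun an AP-1 subunit and Ccnl1 a cyclin tied to splicing. For Dop1b the 5 closest were lncRNA genes, ENSMUSG00000121252 on chromosome 11 (0.324), Gm10138 on chromosome 1 (0.329), ENSMUSG00000120690 on chromosome 19 (0.367), 4930404I05Rik on chromosome 16 (0.368) and ENSMUSG00000120985 on chromosome 7 (0.376). That these 5 were lower in KI follows from their likeness to Dop1b.

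Of the other 8 members none was called, where a call needs an FDR below 0.1 in edgeR's quasi-likelihood test and a log2 fold change beyond 0.5 in either direction. Over all tested genes 8.64% were called, 4.33% higher and 4.3% lower, and 3.97% of the protein-coding genes. At an FDR below 0.1 alone 1 member passed, Usp16 (12.5% of the 8), against 14.8% of all tested genes and 11.7% of the protein-coding genes. At an unadjusted p below 0.05 there were 2, Usp16 and Adamts5, or 25% of the 8. Such a p was held by 24.1% of all tested genes and 20.7% of the protein-coding genes. The median log2 fold change of the 8 was -0.0011, and 4 were above 0. DESeq2 called 1 of the 8, Adamts5.

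Usp16, an enzyme that removes ubiquitin from histone H2A, was modestly lower in KI. In WT_f it measured 68.6, 67.2, 57.6 and 60.3 CPM, and in WT_m 55.7, 55.01, 57.7 and 53.9 CPM. In KI_f it measured 50.2, 47.5, 41.9 and 49.2 CPM, and in KI_m 44.1, 41.5, 51.5 and 53.8 CPM. The genotypes did not overlap, but only just, since the highest KI and the lowest WT libraries were both m libraries at 53.8 and 53.9 CPM. Among all tested genes 1.29% had genotypes that did not overlap, and among the protein-coding genes 0.465%. The means were 59.5 ± 5.53 CPM in WT and 47.5 ± 4.54 CPM in KI (SD, n = 8 each). The log2 fold change was -0.32 (SE 0.0627, FDR 0.00347, edgeR), which is short of the fold threshold. It was -0.43 within the libraries numbered 1 and 2 and -0.22 (FDR 0.441, edgeR) within those numbered 3 and 4, and -0.08 (FDR 0.962, edgeR) with the immediate early score as a term. Usp16 overlaps Cct8 over 1249 bases and Rwdd2b over 855 bases on the opposite strand, with log2 fold changes of -0.14 (FDR 0.157) and 0.07 (FDR 0.797, edgeR).

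Adamts5, an aggrecan-cleaving protease whose gene lies 53.05 kb from Adamts1, did not share the lower level of its neighbour and did not pass the test. In WT_f it measured 0.751, 1.27, 1.43 and 1.62 CPM, and in WT_m 1.11, 1.46, 1.79 and 1.73 CPM. In KI_f it measured 1.81, 1.64, 1.81 and 2.54 CPM, and in KI_m 2.30, 3.48, 1.09 and 1.97 CPM. The ranges overlapped, with the single highest and a low value both in KI_m. The log2 fold change was 0.59 (SE 0.22, FDR 0.101, edgeR), on 11 to 42 counts per library, so the value sits at the threshold and is imprecise. It was 0.999 (FDR 0.031, edgeR) within the libraries numbered 1 and 2 and 0.20 (FDR 0.913, edgeR) within those numbered 3 and 4.

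The genes nearest to App showed differences close to 0. Gabpa, the DNA-binding subunit of the transcription factor GABP, measured 81.3 ± 4.02 CPM in WT and 78.1 ± 4.42 CPM in KI (log2 fold change -0.06, 95% interval -0.15 to 0.03). Jam2, a junctional adhesion molecule, measured 61.6 ± 3.32 CPM in WT and 64.8 ± 1.99 CPM in KI (0.07, interval -0.01 to 0.16). Mrpl39, a protein of the mitochondrial ribosome, measured 19.6 ± 2.03 CPM in WT and 19.5 ± 1.96 CPM in KI (-0.01, interval -0.17 to 0.15). For these 3 genes, which lie at most 0.213 Mb from App, the intervals leave out a change as large as that of Usp16, and the ranges of the genotypes overlapped. Gabpa and Jam2 overlap Atp5pf, a subunit of mitochondrial ATP synthase on the opposite strand (listed as Atp5j, log2 fold change -0.07, FDR 0.416, edgeR), and the Gabpa and Atp5pf starts are 980 bases apart.

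Further along, Ltn1, the ubiquitin ligase that marks unfinished proteins on stalled ribosomes, measured 49.6 ± 3.51 CPM in WT and 49.8 ± 2.32 CPM in KI (log2 fold change 0.01, interval -0.09 to 0.10). N6amt1, a methyltransferase that works with Trmt112 and whose gene ends 7.9 kb from Ltn1, measured 6.09 ± 0.904 CPM in WT and 6.86 ± 1.06 CPM in KI (0.18, interval -0.07 to 0.42, FDR 0.383, edgeR). Ltn1 and N6amt1 therefore sit between Adamts5 and Usp16 on the chromosome without a difference beyond their spread. Cyyr1, a little-studied cysteine- and tyrosine-rich membrane protein, was near the floor of detection at 10 to 79 counts per library and had the widest interval of the 10 (-0.27, -1.07 to 0.54, FDR 0.741, edgeR).

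**Figure D3:**
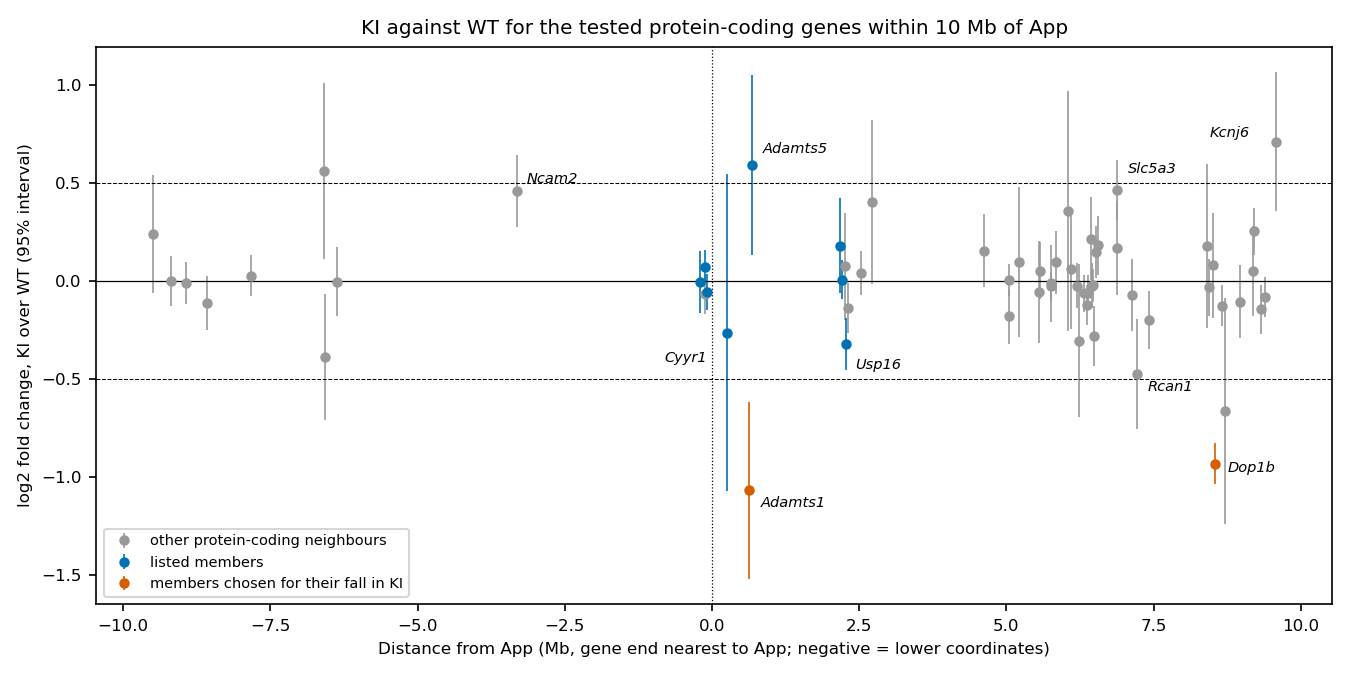
Log2 fold change, KI over WT, of each tested protein-coding gene within 10 Mb of App against its distance from App in Mb (negative toward lower coordinates), with 95% intervals and dashed lines at the fold threshold of 0.5. Dop1b at 8.54 Mb (-0.93) and Adamts1 at 0.619 Mb (-1.07) lie below their neighbours, and Kcnj6 at 9.57 Mb (0.71) is the 1 other gene called.

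The wider neighbourhood was read in the same fit. Of 105 protein-coding genes within 10 Mb, without App, Dop1b and Adamts1, 60 were tested, 1 was called (1.67%) and the median log2 fold change was -0.01, against 3.97% called among all protein-coding genes tested. Leaving out 1 library took the count from 1 up to 5 (without WT_m replicate 1 or KI_m replicate 3), so the comparison of these shares rests on single libraries. Within 5 Mb 0 of 15 were called by edgeR, and 4 had an unadjusted p below 0.05 (26.7%, against 20.7% of the protein-coding genes). Between 5 and 10 Mb 1 of 45 was called (2.22%), between 10 and 20 Mb 1 of 23 (4.35%), and over the rest of chromosome 16 12 of 333 (3.6%). At the FDR alone 9 of the 60 passed, or 15%, against 11.7% of the protein-coding genes. DESeq2 called 3 of the 60.

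The called neighbour was Kcnj6, an inwardly rectifying potassium channel of neurons. Its mean was 8.16 ± 2.32 CPM in WT and 13.3 ± 2.54 CPM in KI (SD, n = 8 each), and the log2 fold change was 0.71 (SE 0.168, FDR 0.0126, edgeR), with overlapping genotypes. The call was lost within the libraries numbered 3 and 4 (0.39, FDR 0.534, edgeR) and with the immediate early score as a term (0.37, FDR 0.962, edgeR). Of 10 neuronal markers 8 had a log2 fold change above 0. The FDR was passed by 5, all higher, against 11.7% of all protein-coding genes tested. None of the 10 was past both thresholds, and none had a level of 0. Their summed level was 395 to 553 CPM in WT and 495 to 728 CPM in KI, and its part in the Kcnj6 result was not tested. In bulk libraries such as these, a change in the number of cells of a type and a change in RNA per cell cannot be told apart. All 8 oligodendrocyte markers had a log2 fold change above 0 (median 0.37), 3 passed the FDR and 1, Mog, was called higher by edgeR, and their summed level was 240 to 454 CPM in WT and 292 to 437 CPM in KI. None of them was at 0, and their part in the results was not tested. Of the pericyte and fibroblast, astrocyte, olfactory ensheathing cell and border macrophage markers 0 were called by edgeR, and 0, 1, 1 and 0 had an unadjusted p below 0.05. In that order their median log2 fold changes were -0.08, -0.25, 0.05 and 0.10. Those above 0 were 2 of 8, 1 of 8, 5 of 8 and 6 of 7 tested.

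The other 7 neighbours that passed the FDR below the fold threshold, besides Usp16, were named after their values were seen, except Ncam2. Slc5a3, the myo-inositol transporter, rose by 0.46 on the log2 scale (SE 0.0724, FDR 0.000782, edgeR). Its genotypes did not overlap, at 19.9 to 30.5 CPM in WT and 32.4 to 38.9 CPM in KI. This held for 2 of the 60 neighbours (3.33%), Slc5a3 and Usp16, against 0.465% of all protein-coding genes tested. The share rests on these 2 genes alone, and Usp16 was separated only just (at most 53.8 CPM in KI, at least 53.9 CPM in WT). Ncam2, an adhesion molecule of olfactory axons, rose by 0.46 (FDR 0.00335, edgeR) and Ttc3, a ubiquitin ligase, by 0.25 (FDR 0.00896, edgeR). Rcan1, an inhibitor of calcineurin, had a log2 fold change of -0.48 (FDR 0.0315), Donson, a replication factor, of -0.28 (FDR 0.02), Runx1, a myeloid transcription factor, of -0.20 (FDR 0.0843), and Sod1, the cytosolic superoxide dismutase, of -0.18 (FDR 0.093, all edgeR). Both directions were thus present, with 4 higher and 5 lower when Kcnj6 and Usp16 are counted. None of the 7 passed the FDR with the immediate early score as a term, which itself differs between the genotypes. Their log2 fold changes then ran from 0.45 for Slc5a3 (FDR 0.717) to -0.20 for Sod1, with an FDR of at least 0.962 for all but Slc5a3 (edgeR).

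The cytokine receptor genes Ifnar1, Ifnar2, Il10rb and Ifngr2, which lie in a row in this window and bind interferons and interleukin-10, gave 0 calls of 4 by edgeR and 1 unadjusted p below 0.05, that of Ifngr2. Their log2 fold changes were -0.07, -0.03, -0.31 and -0.12. Of the neighbours nearest to App on either side that are no members, Cxadr, a cell adhesion and virus receptor, had a log2 fold change of 0.56 (FDR 0.112), Btg3 -0.39 (FDR 0.12), D16Ertd472e 0.00, Bach1, a repressor of oxidative stress genes, 0.04, Grik1, a kainate receptor subunit, 0.40 (FDR 0.231) and Tiam1, an activator of Rac, 0.15 (FDR 0.312, edgeR for all). DESeq2 called Cxadr higher (0.57, FDR 0.0754).

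Genes of other classes in the window were called at 18.2% (6 of 33), against 23.3% of all such genes tested. The lncRNA 4930404I05Rik, 5.84 Mb from App, had the most negative log2 fold change of them and is also among the 5 profiles most like Dop1b. In WT_f it measured 14.9, 13.4, 12.99 and 12.2 CPM, and in WT_m 13.3, 13.9, 10.7 and 10.6 CPM. In KI_f it measured 3.48, 6.19, 3.27 and 6.51 CPM, and in KI_m 3.32, 3.81, 6.05 and 7.38 CPM. No KI library reached a WT library. Genotypes that did not overlap were found in 1.29% of all tested genes and 0.465% of the protein-coding ones. The share among lncRNAs was not taken. The log2 fold change was -1.35 (SE 0.165, FDR 0.000184, edgeR). The call was lost within the libraries numbered 3 and 4 (-0.99, FDR 0.111, edgeR) and with the immediate early score as a term (-0.73, FDR 0.717, edgeR). The protein-coding genes that it overlaps on the opposite strand had log2 fold changes of -0.03 for Synj1 (FDR 0.686) and 0.09 for Paxbp1 (FDR 0.504, edgeR). The other called lncRNAs, A930006K02Rik, Gm49625 and ENSMUSG00000120258, were lower (-0.71, -0.61 and -0.90). The unclassified transcripts A630036G19Rik and Gm49555 were higher (1.67, FDR 0.0379, and 1.31, FDR 0.0737, edgeR). All had mean levels of at most 2.14 CPM. The WT means of A630036G19Rik (0.248 CPM) and Gm49555 (0.325 CPM) and the KI mean of ENSMUSG00000120258 (0.266 CPM) lay within the floor of 0.166 to 0.331 CPM, so these fold changes are imprecise.

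Set per length of exon, the members covered a wide range of levels. The length is that of all annotated exons of a gene together (19047 bases for App, 5473 for Adamts1). It can exceed the length of the transcripts present by different amounts for different genes. The order of the genes depends on this choice. In WT the order of the means was Adamts1 (32.7 ± 11.9 CPM per kb), App (22.01 ± 1.80), Gabpa (9.67 ± 0.479), Jam2 (5.57 ± 0.300), Usp16 (5.40 ± 0.502), Ltn1 (5.32 ± 0.376), Dop1b (5.10 ± 0.301), Mrpl39 (3.59 ± 0.372), N6amt1 (0.967 ± 0.143), Cyyr1 (0.264 ± 0.193) and Adamts5 (0.128 ± 0.0316). The libraries of Adamts1 and App overlapped, as did those of Jam2 and Usp16, Usp16 and Ltn1, Ltn1 and Dop1b, and Cyyr1 and Adamts5. Their ranges therefore do not separate these pairs, and levels within the same library were not compared. In KI, App had a mean of 21.0 ± 0.668 CPM per kb and Adamts1 of 14.98 ± 5.91. Their libraries overlapped (up to 22.2 for App and 22.4 for Adamts1), so the ranges do not separate this pair in KI either. Dop1b (2.67 ± 0.200) was below Mrpl39 (3.57 ± 0.359) in KI, and their libraries did not overlap (at most 2.97 and at least 3.07).

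**Figure D4:**
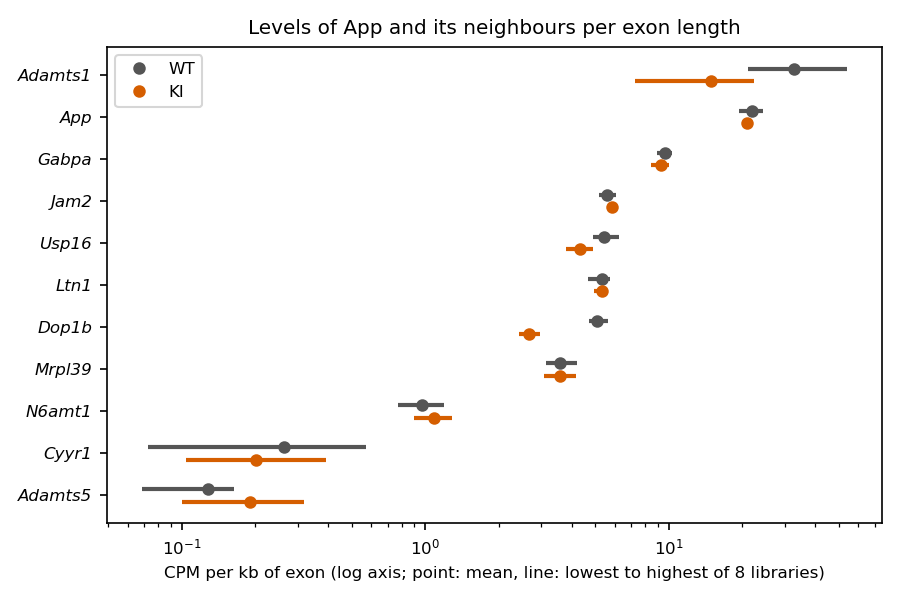
Mean level in CPM per kb of exon (all annotated exons of a gene together, log axis) of App and the 10 members, with a line from the lowest to the highest of the 8 WT (grey) and 8 KI (orange) libraries. In WT the lines of Adamts1 (mean 32.7 CPM per kb) and App overlap at the top, those of Cyyr1 and Adamts5 (mean 0.128) overlap at the bottom, and the WT and KI lines of Dop1b and Usp16 do not meet.

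The difference between the sexes was not used to choose the members. For the interaction of genotype and sex 0 of the 10 members were called by edgeR at an FDR below 0.1, against 0.0274% of all tested genes, with 1 at an unadjusted p below 0.05, and DESeq2 gave 0 calls and 1 such p. For m against f 0 members were called by edgeR, against 0.0604% of all tested genes, with 1 at an unadjusted p below 0.05, and DESeq2 again gave 0 and 1.

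Dop1b had a log2 fold change of -0.99 in f and -0.87 in m libraries, and the difference of m minus f was 0.12 (95% interval -0.09 to 0.33, FDR 0.977, edgeR). For Adamts1 the values were -1.43 and -0.70, with a difference of 0.72 (-0.11 to 1.56, FDR 0.9, edgeR), and for Usp16 -0.42 and -0.22, with a difference of 0.21 (-0.04 to 0.46, FDR 0.9, edgeR). The intervals of Adamts1 and Usp16 leave room for a smaller change in m libraries. Within a sex Usp16 passed the FDR in f libraries (0.00558) and not in m libraries (0.318, edgeR). Adamts1 was also the member with the unadjusted p below 0.05 for sex (log2 m over f -0.50, SE 0.214, FDR 0.746, edgeR).

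Cyyr1 was the member with the unadjusted p below 0.05 for the interaction. It measured 4.94, 5.32, 2.64 and 1.71 CPM in WT_f and 0.857, 0.675, 2.35 and 1.12 CPM in WT_m. In KI_f it measured 1.61, 0.970, 1.64 and 1.95 CPM, and in KI_m 1.11, 3.64, 1.93 and 2.11 CPM. The first 2 WT_f libraries stood above all others and the rest overlapped. The log2 fold change was -1.23 in f and 0.89 in m, a difference of 2.12 (0.85 to 3.40, FDR 0.355, edgeR) that did not pass adjustment. Of 10 endothelial markers, all detected, 0 were called by edgeR and 0 had an unadjusted p below 0.05 between the genotypes. Their median log2 fold change was -0.16, and 0 of the 10 were above 0. Their summed level was 103 to 228 CPM in WT_f, 69.1 to 82.9 CPM in WT_m, 90.2 to 112 CPM in KI_f and 88.2 to 123 CPM in KI_m. With the endothelial score as a term the genotype log2 fold change of Cyyr1 over both sexes was -0.05 in place of -0.27. Its part in the interaction was not tested.

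**Figure D5:**
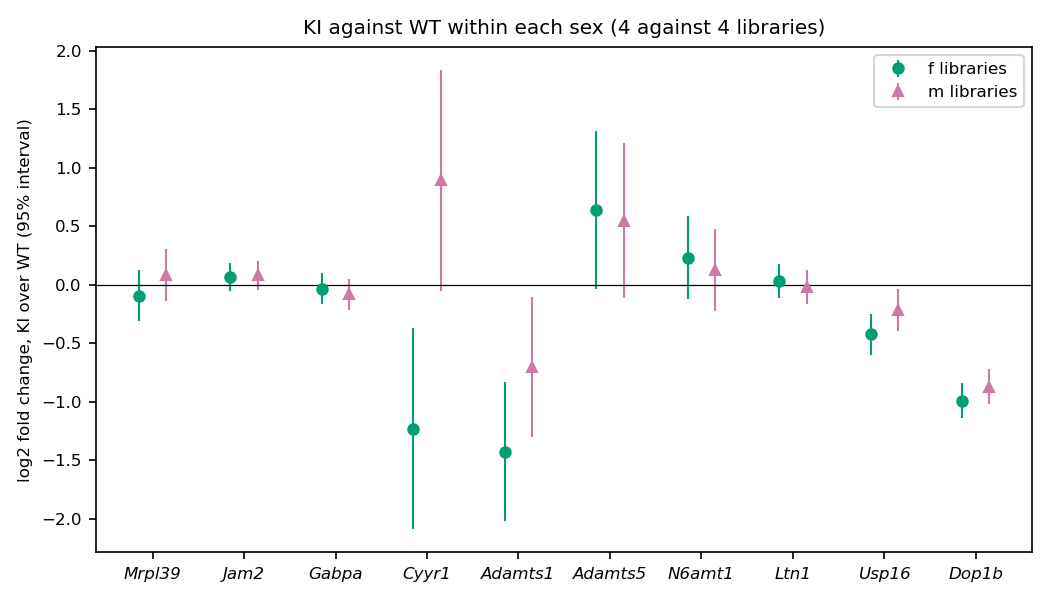
Log2 fold change, KI over WT, within f (circles) and m (triangles) libraries for the 10 members in order along the chromosome, with 95% intervals, 4 against 4 libraries. Dop1b is at -0.99 and -0.87, Adamts1 at -1.43 and -0.70, and Cyyr1 is on opposite sides of 0 with wide intervals.

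Genes that work with the members were read from lists set by function, and those named here that were not called were picked after their values were seen. Over all protein-coding genes 20.7% had an unadjusted p below 0.05 and 3.97% were called. Of 8 partners of Dop1b in Golgi and endosome traffic 0 were called by edgeR and 2 had an unadjusted p below 0.05. Its binding partner Mon2 was at -0.14 (SE 0.0446, FDR 0.0601) and its paralogue Dop1a at -0.01 (SE 0.0512, FDR 0.97, edgeR), at 49.6 CPM in WT and 49.3 CPM in KI, so the lower level was not seen in the paralogue. Of the 17 ADAMTS proteases listed besides the members 14 were tested, 4 had an unadjusted p below 0.05 and 2 were called, both higher, Adamts3 (0.63, FDR 0.0417) and Adamts20 (0.57, FDR 0.0983, edgeR), at mean levels of 8.11 and 5.45 CPM in KI. Of 5 ADAMTS substrates and inhibitors 0 were called, 1 had an unadjusted p below 0.05, and the brain proteoglycan Ncan was at -0.25 (FDR 0.0578, edgeR).

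The partners of the remaining members held 0 calls by edgeR, and the number with an unadjusted p below 0.05 is given for each list. For Ltn1 this covered 13 genes of ribosome-associated quality control, of which Nemf, which holds Ltn1 on the ribosome, was at -0.13 (FDR 0.0594, edgeR), and 2 had such a p. For N6amt1 it covered 7 genes, Trmt112 (-0.20, FDR 0.081, edgeR) and its methyltransferases, of which 1 had such a p. For Gabpa it covered 14 genes of the GABP complex and its ETS relatives, of which 6 had such a p, 5 lower, among them Ets2 (-0.37, FDR 0.0729) and Etv6 (-0.20, FDR 0.0378, edgeR), and 1 higher, Elk1 (0.28, FDR 0.134, edgeR). For Jam2 it covered 7 junction genes with none, and for Usp16 9 enzymes of histone H2A ubiquitin with 1, the ligase Rnf2 (-0.17, FDR 0.0783, edgeR). The median log2 fold changes of these lists lay between -0.08 and -0.02, and that of all tested genes was -0.0014.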

How the data were processed

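Microglia RNA from 16 libraries was measured as raw counts per gene, which the authors deposited without normalization. According to their methods and processing notes, reads were aligned with STAR to GRCm39 with a human App sequence added. Sex, group and replicate came from the sample titles.

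Analyses used R 4.3.3, edgeR 4.0.16, limma 3.58.1 and DESeq2 1.42.0. A gene was kept if 8 or more libraries (50%) held 5 or more counts of it (18227 of 57010, 99.9% of counts). Kept genes were TMM-normalized and tested for genotype with sex as a term by edgeR's quasi-likelihood test on all genes, with Benjamini-Hochberg adjustment (FDR). The interaction was taken from a model of 4 group means. A standard error is the size of the log2 fold change over the root of F, and intervals are 95%. Positions came from a GRCm39 annotation that matched 97.5% of the rows. The procedure was tested on simulated data.

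The members, gene lists, tests and rule for named genes were chosen with earlier results of these data known. Named were the members, App, called neighbours within 10 Mb, the 5 nearest tested neighbours on each side, the cytokine receptors, the 5 nearest profiles of Dop1b and Adamts1, and called partners. Other genes were named because they overlap these or after their values were seen. Alternatives were other scalings, tests, filters, covariates, thresholds and windows and leaving out each library. The fits within libraries numbered 1 and 2, and 3 and 4, were added after seeing the data. Comparisons made by the authors were not used. The promoter of 1 member is not reported here.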

Additional observations from a re-analysis of the deposited data

Results flagged for a closer look

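Dixon's test at the 95% level was run on the CPM of the named genes and the summed CPM of the microglial, endothelial and immediate early lists. Of 144 groups of 4 libraries 3 had 1 extreme library, against 7.2 that chance gives. D16Ertd472e was highest in KI_f replicate 2 (8.21 CPM, gap over range 0.831), Il10rb was highest in WT_m replicate 3 (9.97 CPM, 0.918), and Donson was lowest in KI_f replicate 1 (13.8 CPM, 0.91). None is one of the 10 members.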

How the results depend on the processing

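The log2 fold change of Dop1b, a value used to choose it, ran from -1.02 to -0.77 in 27 refits (other call thresholds not counted). Adamts1 ran from -1.72 to -0.08, and was smallest with the immediate early score as a term (-0.08) and within the libraries numbered 3 and 4 (-0.56). Usp16 ran from -0.43 to -0.08. Adamts5 crossed the threshold in 7 alternatives, among them DESeq2 size factors (0.59), DESeq2 (0.60), the minimum of 10 counts (0.59) and the fits without WT_m replicate 3 (0.64), WT_f replicate 4 (0.66) or KI_m replicate 3 (0.71). The neighbour Cxadr crossed it in 8, among them DESeq2 (0.57) and limma voom (0.63), and Rcan1 in 7, among them limma voom (-0.50). Leaving out 1 library gave -0.96 to -0.90 for Dop1b, -1.23 to -0.97 for Adamts1 and 0.46 to 0.71 for Adamts5.

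The count of called genes over all genes was 1574, moved to 2692 with no fold threshold, and ranged from 1101 to 2187 without 1 library. The count of called neighbours was 1, and 2 with DESeq2 size factors, with no count minimum and with a minimum of 10 counts, 3 with DESeq2 and with limma voom, 9 with no fold threshold and 0 in a window of 5 Mb. Without 1 library it ranged from 1 to 5, with 5 without WT_m replicate 1 or KI_m replicate 3, 4 without WT_m replicate 3, 3 without WT_f replicate 3, and 2 without WT_f replicate 2, WT_f replicate 4 or KI_m replicate 4. The members had 0 calls for the interaction and for sex in every alternative run.

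Directions turned only for log2 fold changes near 0 or with the immediate early score as a term. With that term Mrpl39 was at 0.17, Cyyr1 at 0.57, Btg3 at 0.077, D16Ertd472e at 0.013, Rwdd2b at -0.083, Grik1 at -0.021, Ifnar1 at 0.0035, Ifnar2 at 0.015, Il10rb at 0.023 and Rcan1 at 0.031, while Kcnj6 (0.37) and 4930404I05Rik (-0.73) were no longer called. The score as a term follows genotype itself, and the cause was not tested. With the endothelial score Mrpl39 was at 0.00053. Within the libraries numbered 1 and 2 Bach1 was at -0.00066 and Ifnar2 at 0.0023, and within those numbered 3 and 4 Mrpl39 was at 0.12, Ltn1 at -0.020, D16Ertd472e at 0.0063 and Atp5pf at 0.0083, and Kcnj6 (0.39) and 4930404I05Rik (-0.99) were no longer called. Without 1 library Ltn1 ran from -0.010 to 0.032, Mrpl39 from -0.036 to 0.035, D16Ertd472e from -0.037 to 0.034 and Ifnar2 from -0.048 to 0.0054.

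With the replicate number as a block Dop1b was at -0.94, Usp16 at -0.32 and the neighbours at 1 call, and 1562 genes were called. The deviations of libraries with the same number had a mean correlation of 0.0133 (24 pairs, from -0.33 to 0.29, 8 over 0.1). For different numbers it was -0.0046 (72 pairs, from -0.31 to 0.45, 19 over 0.1). Of the 16 libraries 8 correlated best with their own number. These values do not settle whether the numbers pair the samples. The median over all genes differed by 0.0038 between scalings. Depth limits Adamts5 and Cyyr1, with 10 to 79 counts per library.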
